A study of Mus musculus with 6 samples.

Results

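The signalling genes that carry growth factor and cytokine signals in blood cells were followed here: 29 genes for receptors, Janus kinases (JAK), signal transducers and activators of transcription (STAT), adaptors, and the RAS pathway. They were chosen by name, as genes with any annotation other than intergenic in the deposited variant lists, and all 29 had at least 1 listed site, out of 24223 gene names in the lists. The lists held 327 distinct sites annotated to these genes, of 177834 distinct sites in all. The data are exome sequences, that is, genomic DNA enriched for coding exons by capture, from whole bone marrow and matched ear tissue of 3 mice, animals 54, 108 and 136, giving 3 marrow and 3 ear samples.

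All 3 mice were heterozygous for Srsf2 P95H, a hotspot change in a splicing factor that occurs in human myelodysplasia and chronic myelomonocytic leukaemia, and were sampled when moribund, 50 to 60 weeks after tamoxifen. The labels give the strain as C57BL/6, animals 54 and 108 as male and animal 136 as female. The sample labels name R26CreERT2 as the Cre driver of every sample, a tamoxifen-activated recombinase at the Rosa26 locus, which is active in most tissues. The series design instead names hScl-CreERT with an R26eYFP reporter, a driver for blood stem and progenitor cells, for 1 of the 3 animals, and which animal that was is not given in the sources used here. Every animal carried the Srsf2 allele, so there was no mouse without it, and the ear is a matched tissue of the same mutant animal rather than a normal control.

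Cytokine receptors without kinase activity of their own, such as the receptors for granulocyte colony-stimulating factor, interleukin-3 and erythropoietin, signal through bound Janus kinases, which phosphorylate STAT proteins. Receptor tyrosine kinases such as Kit and Flt3 signal directly, and both kinds of receptor also activate RAS proteins through the exchange factor Sos1 and the phosphatase Ptpn11. Cbl proteins, the adaptor Sh2b3 and the RAS inactivator neurofibromin (Nf1) restrain these signals. Activating changes in the first group, and loss of the second, are recurrent cooperating lesions in human myeloid neoplasms.

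No protein-altering somatic call was listed in any of the 29 genes, by either somatic caller, in any of the 3 animals. For each caller the exact Poisson 95% interval of a count of 0 reaches 3.69 calls, which covers counting error only. Over the 16810 protein-coding gene names in the lists, 13.7% had a protein-altering call by Strelka, 0.5% by VarScan2 and 14.1% by either, against 0 of the 29 members. What the lists did hold was a set of variants shared by both tissues of an animal. They included 14 protein-altering sites in 4 members: 9 in Csf2rb2, 3 in Tyk2, 1 in Csf3r and 1 in Nf1. Such a shared site was present in 9.32% of the protein-coding gene names and in 4 of 29 members (13.8%). By animal the members with such a site numbered 3 for animal 54, 2 for 108 and 0 for 136, where 4.06%, 6.01% and 1.37% of the gene names had one.

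A site is called shared below where the lists of both tissues of 1 animal hold the same change, and private where the list of only 1 of them does. The lists hold variant sites alone, with reads of the reference and variant allele, so a site missing from a list has no depth there, and private means not listed in the other tissue rather than absent from it. All 313 distinct sites placed within a member lay inside that gene's RefSeq span in the GRCm38 build, and coordinates below are in that build.

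The few insertions and deletions that bear on the results are shown first, as the plus strand of the lists' alleles, 5′ to 3′. Capitals mark the bases gained or lost, placed at the right end of the repeat. The Csf3r allele lay in intron 10 of the granulocyte colony-stimulating factor receptor gene, 7 to 6 bases before the next exon (chr4:126039487-126039500), and is shown because it stood near 50% of reads yet was listed in marrow alone. It was not the only such site. In the same animal, 54, marrow-only sites near 50% included Csf2rb2 c.2601C>G (53 of 111 reads, 47.7%) and an Nras intron site (19 of 38, 50.0%).
Csf3r reference: cctctctctctctc
Csf3r c.1586-7_1586-6dupTC: cctctctctctctcTC
In the same repeat where the next allele lay, another insertion, c.7875+54_7875+55insTTTC, was listed in marrow of animal 108 alone (25 of 55 reads, 45.5%). The Nf1 allele shown was a gain of 1 repeat unit in intron 53 (chr11:79565579-79565609), shared by both tissues of animal 108.
Nf1 reference: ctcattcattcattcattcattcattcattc
Nf1 c.7875+55_7875+58dupATTC: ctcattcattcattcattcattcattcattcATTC
The Cbl allele was a loss of bases in exon 1 (chr9:44233821-44233824) and the only frameshift among the members.
Cbl reference: ccGC
Cbl c.65_66delGC: cc

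Listed sites were unevenly spread over animals. The marrow and ear lists of animal 54 held 126 and 178 member sites, those of animal 108 held 81 and 76, and those of animal 136 held 35 and 40. Median read depth at member sites ranged from 18.5 to 46 over the 6 samples, and the lowest depth of any listed site was 11. Depth here is the caller's own total at a site, which can exceed the reads assigned to the reference or variant allele, from which all fractions below are computed. Animals 54, 108 and 136 had 98, 38 and 6 shared sites. These made up 47.6%, 31.9% and 8.7% of the member sites of those animals, against 41.7%, 51.5% and 29.6% of all sites. Of 118 distinct shared sites, 90 lay in Csf2rb2, Csf2rb, Csf3r or Tyk2 and 28 in the other members.

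**Figure D1:**
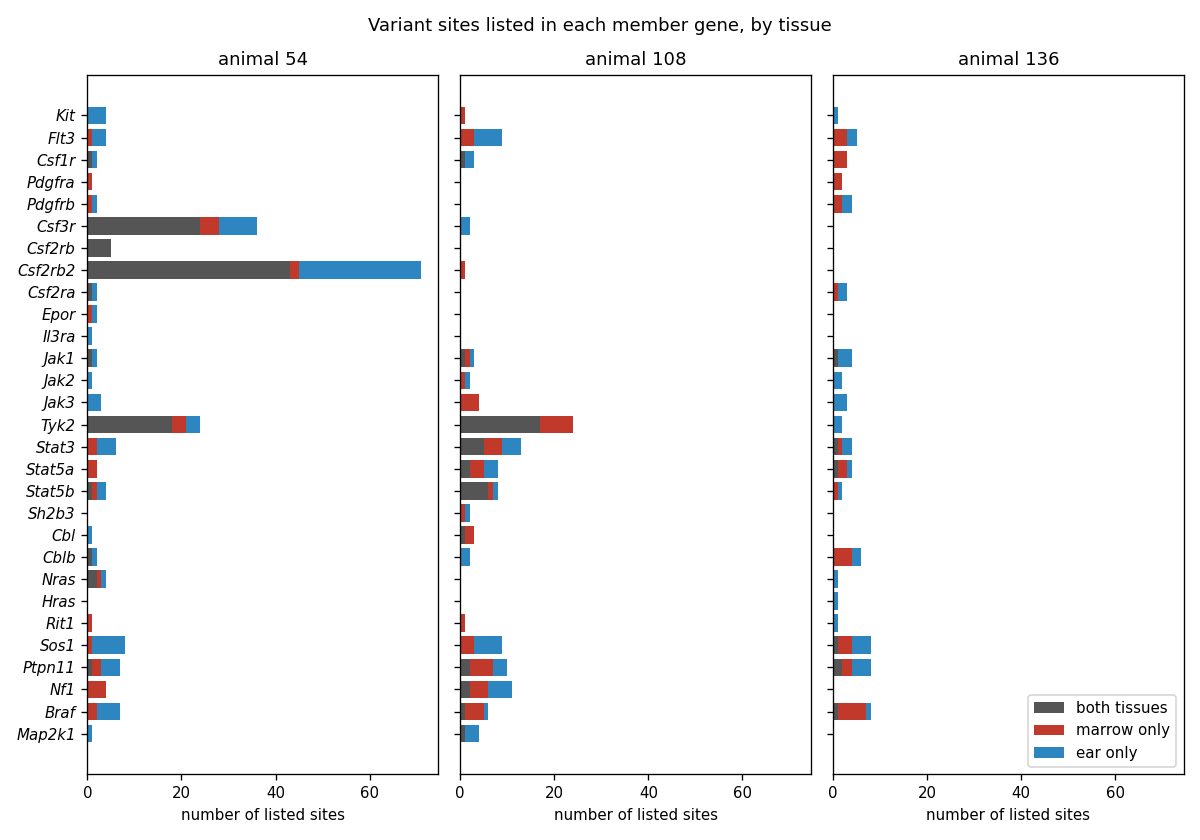
Number of listed variant sites in each of the 29 members (rows, grouped by role from receptors to kinases), with 1 panel per animal; bar parts give sites in both tissues, in marrow only and in ear only. Csf2rb2 and Csf3r stand out in animal 54 with 43 and 24 shared sites, and Tyk2 in animals 54 and 108 with 18 and 17.

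Csf2rb2 held more sites than any other member, 72 in all, and all but 1 of them were listed in animal 54. It encodes a beta subunit that mouse interleukin-3 receptors use beside the common beta chain encoded by Csf2rb. In animal 54, 43 sites were shared, 2 were in marrow only and 26 in ear only. The median variant fraction of the shared sites was 51.6% in marrow and 49.6% in ear.

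The changes to the protein ran from its start to its last exon. In exon 3, p.Glu38Gln was carried by 66 of 128 reads in marrow (51.6%, 95% interval 42.6 to 60.5%) and 90 of 173 in ear (52.0%, 44.3 to 59.7%). In exon 5, p.Pro139Leu was carried by 97 of 165 reads in marrow (58.8%, 95% interval 50.9 to 66.4%) and 131 of 259 in ear (50.6%, 44.3 to 56.8%). Those changes stood near 50% in ear, with the second a little above it in marrow. In exon 6, p.Leu201Phe was carried by 53 of 134 reads in marrow (39.6%, 95% interval 31.2 to 48.4%) and 98 of 221 in ear (44.3%, 37.7 to 51.2%). In the same exon, p.Ala213Val was carried by 40 of 115 reads in marrow (34.8%, 95% interval 26.1 to 44.2%) and 72 of 181 in ear (39.8%, 32.6 to 47.3%). The exon 6 changes stood below 50% in both tissues. In exon 14, which encodes the end of the cytoplasmic part, p.Arg553Gly was carried by 70 of 150 reads in marrow (46.7%, 95% interval 38.5 to 55.0%) and 106 of 210 in ear (50.5%, 43.5 to 57.4%). Further along exon 14, p.Ile577Thr was carried by 72 of 145 reads in marrow (49.7%, 95% interval 41.3 to 58.1%) and 121 of 207 in ear (58.5%, 51.4 to 65.2%). The remaining 3 shared missense sites of the gene, in exons 9, 11 and 14, stood at 43.1 to 53.2% in marrow and 47.0 to 52.4% in ear. A splice-region change 5 bases before exon 11, c.1322-5C>G, was carried by 36 of 98 reads (36.7%, 95% interval 27.2 to 47.1%) in marrow and 27 of 86 reads (31.4%, 95% interval 21.8 to 42.3%) in ear. The 3 shared sites of its 3′ untranslated region, all at 10 to 44 reads, stood at 50.0, 70.0 and 81.8% in marrow and at 50.0, 43.3 and 46.9% in ear.

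Csf2rb2 and Csf2rb are near-identical neighbours on chromosome 15, and reads of one can be placed on the other, so counts in both are uncertain. Mapping quality at the shared Csf2rb2 sites had a median of 34 in each tissue, and 12 of 43 sites were below 30, while every shared Csf3r and Tyk2 site stood at 38 or higher. Csf2rb, the common beta chain of the receptors for interleukin-3, interleukin-5 and granulocyte-macrophage colony-stimulating factor, had 5 sites, each shared in animal 54 and in no list of the other animals. None altered its protein. The synonymous p.Ser669Ser had 22 of 46 reads (47.8%, 95% interval 32.9 to 63.1%) in marrow and 24 of 47 reads (51.1%, 95% interval 36.1 to 65.9%) in ear. The site in its 3′ untranslated region, c.*154G>C, had 5 of 12 reads (41.7%, 95% interval 15.2 to 72.3%) and 11 of 16 reads (68.8%, 95% interval 41.3 to 89.0%).

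Both genes sat within a stretch dense in shared variants in animal 54. Within 1 Mb of Csf2rb2 animal 54 had 564 shared sites, against 21 for animal 108 and 15 for animal 136. Csf3r had 80 shared sites in the same window in animal 54 against 13 and 10, and Nras 244 against 6 and 5. Tyk2 had 192 and 190 in animals 54 and 108 against 14 in animal 136. Animal 108 had 259 around Stat3 and 296 around Cbl, where animals 54 and 136 had 13 to 22. Csf2rb2, Csf3r and Tyk2, the members with most shared sites, thus lay where shared sites were also many in that animal. These window counts include the member's own sites. A dense window did not always come with many sites in the member, since Cbl had 1 shared site in animal 108 and Nras 2 in animal 54.

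Csf3r carried 24 shared sites, again in animal 54 alone. Its only shared protein-altering change was p.Ser379Asn in exon 8, named although its summed reads were outside the highest 10, with 47 of 98 reads (48.0%, 95% interval 37.8 to 58.3%) in marrow and 80 of 148 reads (54.1%, 95% interval 45.7 to 62.3%) in ear. Another 4 shared sites were synonymous. The insertion printed above, c.1586-7_1586-6dupTC, had 89 of 183 reads (48.6%, 95% interval 41.2 to 56.1%) in marrow and no entry in ear. The caller counted 83 reads as supporting that insertion, of a depth of 205. The ear list held 5 sites within 500 bases of it, the deepest at 330 reads, so the region was sequenced in ear, and neither somatic caller listed the change. A second marrow-only insertion 1 base to its left, c.1586-19_1586-18dupCC, had 64 of 172 reads counted as variant, but the caller counted 2 reads as supporting it.

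Of the other cytokine receptors, none had a shared change in its coding sequence. Csf2ra, the alpha chain for granulocyte-macrophage colony-stimulating factor, had 3 sites, 2 of them upstream and 1 in an intron. Its shared site lay 4817 bases before the coding start with 8 of 33 reads in marrow and 21 of 80 in ear of animal 54. Epor, the erythropoietin receptor, had 2 private intron sites. Il3ra, the interleukin-3 alpha chain, had 1 site, a splice acceptor change in ear of animal 54, c.1068-2A>G, with 4 of 37 reads (10.8%, 95% interval 3.03 to 25.4%).

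Among receptor tyrosine kinases no shared site altered the protein. Kit, the stem cell factor receptor, had 6 sites and Flt3 17, none of them shared. Pdgfra had 3 and Pdgfrb 6, also none shared. Csf1r, the macrophage colony-stimulating factor receptor, had 6 intron sites, of which 1 was shared by the tissues of animal 54 and another by those of animal 108. Private coding changes were listed in marrow of animal 54 at low counts. Flt3 p.Gln357Leu had 4 of 20 reads (20%, 95% interval 5.73 to 43.7%), and Pdgfra p.Glu726Lys had 3 of 16 reads (18.8%, 95% interval 4.05 to 45.6%). Neither was in a somatic list.

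Tyk2 was the only Janus kinase with shared coding changes. It associates with receptors for type I interferons and interleukin-12. It had 18 shared sites in animal 54 and 17 in animal 108, 17 of them the same change in both animals, and none in animal 136. Its Lys382Glu change, c.1144A>G in exon 6, was the most deeply read protein-altering site of all members. In animal 54 p.Lys382Glu had 183 of 342 reads (53.5%, 95% interval 48.1 to 58.9%) in marrow and 200 of 408 reads (49.0%, 95% interval 44.1 to 54.0%) in ear. In animal 108 the same change had 152 of 319 reads (47.6%, 95% interval 42.1 to 53.3%) in marrow and 163 of 356 reads (45.8%, 95% interval 40.5 to 51.1%) in ear. The 4 samples stood between 45.8 and 53.5%, and the marrow and ear intervals overlapped in both animals. For p.Phe516Leu in exon 9 the marrow and ear of animal 54 had 81 of 164 reads (49.4%) and 146 of 285 (51.2%), and those of animal 108 had 78 of 179 (43.6%) and 91 of 181 (50.3%). For p.His261Arg in exon 5 they had 20 of 37 (54.1%) and 42 of 85 (49.4%), then 43 of 67 (64.2%) and 37 of 64 (57.8%). Another 3 shared sites were synonymous.

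**Figure D2:**
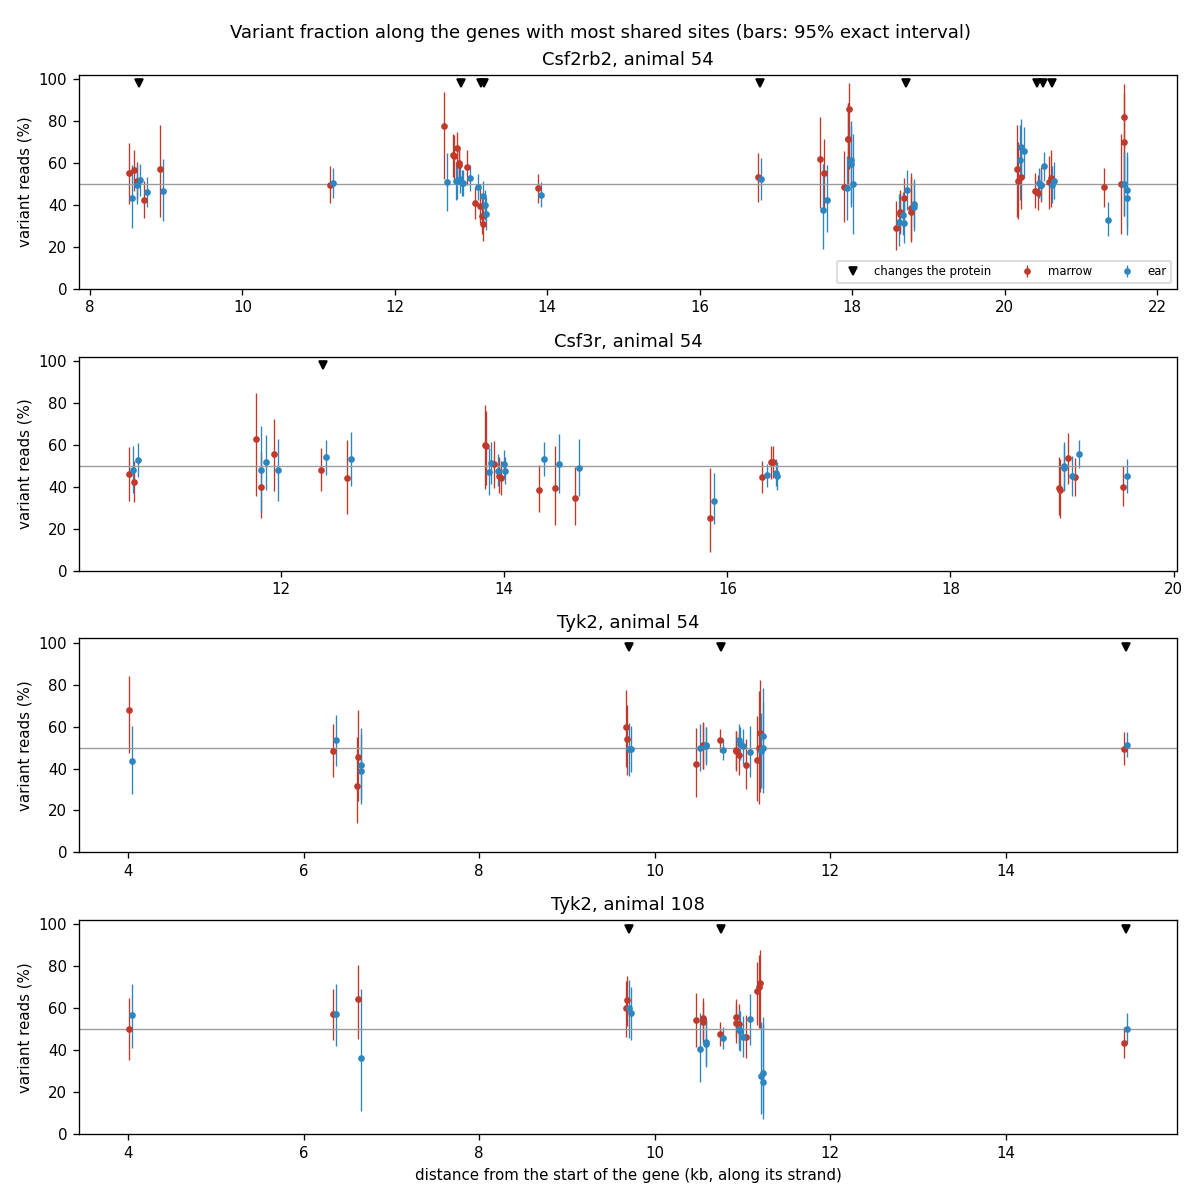
Variant reads as a percentage of reads at each shared site of Csf2rb2, Csf3r and Tyk2, against distance from the gene's start in kb along its strand; points are marrow and ear, bars are 95% exact binomial intervals, triangles mark sites that change the protein, and the grey line is 50%. Most points of both tissues lie near the line, and 3 adjacent Tyk2 intron sites in animal 108 part, with marrow at 68.3 to 72.0% and ear at 25 to 29.4%.

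The other Janus kinases had sites outside coding sequence, with 1 exception. Jak1 had 6 sites and Jak3 9, none protein-altering. Jak2, whose human counterpart is the main driver of polycythaemia vera through a change in its pseudokinase domain, had 3 private sites. One of them was p.Thr957Ser in exon 20, in ear of animal 136, with 3 of 15 reads (20%, 95% interval 4.33 to 48.1%), all on the reverse strand. The Jak1 intron change c.3138-38G>T was one of 2 member sites listed in all 6 samples, at 18.8 to 53.6% of 16 to 28 reads. All of its variant reads were on the reverse strand in every sample, while reference reads were on both.

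STAT genes had no protein-altering site. Stat3 had 18 sites, Stat5a 10 and Stat5b 10, with 7 sites annotated to both Stat3 and Stat5a, which are neighbours. Shared sites were mostly those of animal 108, with 5, 2 and 6 in the 3 genes. In Stat5b these included C>G changes at every second base, c.1473+110C>G, c.1473+112C>G, c.1473+114C>G and c.1473+116C>G. The first 3 stood at 21.1 to 27.2% in marrow and 22.7 to 28.0% in ear, and c.1473+116C>G was also listed in animals 54 and 136. The Stat3 change n.408C>A, in the splice region of a non-coding transcript, had 9 of 22 reads in marrow and 6 of 11 in ear of animal 108, and 13 of 31 in ear of animal 54. A splice-region change of Stat5a, c.2063-4G>T, was private to marrow of animal 108 with 9 of 43 reads (20.9%, 95% interval 10 to 36.0%), all on the forward strand. Over the 5 shared Stat3 sites of animal 108 the marrow fraction was lower at each, by a mean of 14.7 percentage points (SD 12.7 over sites, which are not replicates). None of these sites passed the adjusted test given below, and 1 of them, c.*6699T>G, lay downstream, in an intron of Stat5a. In the same animal the mean was higher in marrow by 0.719 points for Stat5b (2 sites higher, 4 lower) and by 11.4 for Tyk2 (12 higher, 5 lower).

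Adaptors and ubiquitin ligases had few sites. Sh2b3 had 2, Cbl 4 and Cblb 9. The Cbl frameshift p.Gly23fs, printed above, was listed in marrow of animal 108 with 2 of 10 reads (20%, 95% interval 2.52 to 55.6%). It was absent from the somatic lists of that animal.

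Among RAS proteins and their regulators, Nf1 alone had a shared change in coding sequence, p.Leu2128Val in exon 42. In animal 108, 59 of 124 reads (47.6%, 95% interval 38.5 to 56.7%) in marrow and 63 of 137 reads (46.0%, 95% interval 37.4 to 54.7%) in ear carried it, and no list of animals 54 or 136 did. The Nf1 repeat gain printed above had 29 of 51 reads in marrow and 15 of 28 in ear of the same animal. Nras had 5 sites, of which 2 upstream sites were shared in animal 54, and Hras had 1, an upstream site. Rit1, a RAS-related GTPase, had 3 private sites, 2 in its 3′ untranslated region with 2 of 12 reads in marrow of animal 54 and 5 of 17 in ear of animal 136.

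Ptpn11 and Sos1 had 15 and 19 sites, all in introns. The Ptpn11 change c.643-114T>C was in all 6 samples, at 25 to 41.7% of reads, and all but 1 of its variant reads over the 6 samples were on the reverse strand. The Sos1 change c.1202+70G>C was in 4 of 6 lists at 33.3 to 53.3%, and all but 1 of its variant reads were on the forward strand. Braf had 12 sites, all but 1 in introns. Its p.Pro455Leu had 3 of 20 reads (15%, 95% interval 3.21 to 37.9%) in marrow of animal 54. Map2k1, the MEK1 kinase, had 5 sites, of which 1 intron site was shared in animal 108. No member site was annotated to a 5′ untranslated region. Tyk2 c.-34T>G, annotated as upstream, lay 4.028 kb inside the RefSeq gene span and was shared in animals 54 and 108. It had 19 of 28 reads in marrow and 17 of 39 in ear of animal 54. In animal 108 it had 24 of 48 and 25 of 44. The 29 RefSeq promoter windows of 26 members, 300 bases each, held no listed site. Capture was for coding exons, and the lists do not say how deeply those windows were read.

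Whether marrow carried a variant at another fraction than ear was tested at each shared site with at least 10 reads in both tissues, by Fisher's exact test within an animal, adjusted by Benjamini-Hochberg over all sites of that animal. Of the members, 0 of 98, 0 of 38 and 0 of 6 sites of animals 54, 108 and 136 passed an adjusted p of 0.05. Over all sites, 0.0346%, 0.0327% and 0.0181% passed. At an unadjusted p below 0.05 there were 4 of 98, 4 of 38 and 0 of 6 member sites, against 8.41%, 7.43% and 6.22% of all sites. The median marrow minus ear difference was -0.50, 0.78 and -8.05 points over the members and 0 over all sites in each animal.

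The widest gap was in intron 7 of Tyk2 in animal 108. There c.1433+85A>G had 18 of 25 reads in marrow (72.0%) and 4 of 16 in ear (25%), a difference of 47.0 points with a Wald 95% interval of 19.4 to 74.6. Its neighbours c.1433+76T>C and c.1433+53T>G differed by 40.6 and 40.5 points. These 3 sites lie within 32 bases and can share reads, so they are not separate observations, and none passed by Fisher's exact test (adjusted p = 0.359, 0.502 and 0.367). In animal 54 the same 3 sites had 44.0 to 57.1% in marrow and 48.5 to 55.6% in ear. The difference between the animals was tested by Zelen's exact test, with an adjusted p of 0.848 at c.1433+85A>G and 0.625 at c.1433+53T>G. The second of these was the only member comparison of the 26 made with an unadjusted p below 0.05 (0.047, exact). No member site passed the adjusted threshold in any pair of animals, where 0.332%, 0.0956% and 0.0948% of all sites did.

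**Figure D3:**
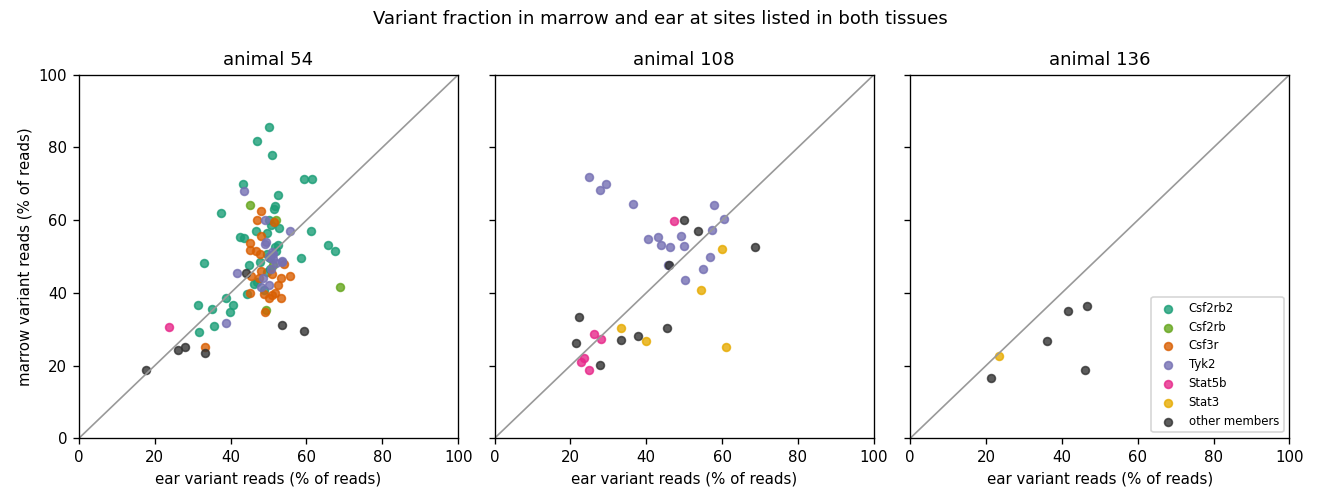
Variant reads as a percentage of reads in marrow (vertical) against ear (horizontal) at each shared member site, 1 panel per animal, with the line of equal values. Points of animals 54 and 108 lie on both sides of the line, the 6 of animal 136 lie below it, and no point passed the adjusted test.

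Across animals, the mean difference over shared sites at 20 to 80% in ear was 0.773 points for animal 54 (97 sites), 2.65 for animal 108 (38 sites) and -9.9 for animal 136 (6 sites). The mean over animals was -2.16 ± 6.77 points (SD, n = 3), and without animal 136 it was 1.71, so its sign rested on the animal with 6 sites. The 2 sites listed in all 6 samples were tested with animal as stratum by an exact conditional test. By that exact test Jak1 c.3138-38G>T differed by -12.9 points (adjusted p = 0.886) and Ptpn11 c.643-114T>C by -5.27 points (adjusted p = 0.863), and 0.0225% of all sites passed. At an unadjusted p below 0.05 neither passed, against 8.87% of all sites.

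Private member sites were 100 in marrow and 152 in ear, summed over animals, where all sites gave 55155 and 65669. That is a mean of 33.3 ± 8.39 and 50.7 ± 25.5 member sites per animal (SD, n = 3). In marrow 59.0% of the private member sites stood under 25% of reads, against 7.04% of the shared ones. In ear the shares were 48.0% and 5.63%. The same gap between private and shared sites held over all sites of the lists, with 41.0% and 5.43% in marrow and 41.6% and 5.49% in ear. Private member sites had a median of 13 to 18.5 reads of both alleles over the 6 samples, and shared ones 21.5 to 85.5, against 13 to 15 and 33 to 67 over all sites. In animals 54, 108 and 136, 67.9%, 81.4% and 86.2% of the private marrow sites had their variant reads on 1 strand, against 35.7%, 50.0% and 83.3% of the shared ones. Over all sites the shares were 76.3%, 81.5% and 83.8% of the private and 44.0%, 38.8% and 51.8% of the shared marrow sites. In ear, 80%, 81.6% and 91.2% of the private member sites were of this kind, against 84.8%, 73.4% and 85.6% of all private sites. Private member sites thus had fewer reads, more fractions under 25% and more 1-strand variant reads than shared ones, as private sites in general did. Their fractions were not low throughout. The 80 private ear sites of animal 54 had a median of 32.1%, and 26 of them lay in Csf2rb2. The part of depth and strand in these calls was not tested.

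Among the private sites, 7 altered a protein, 4 in marrow and 3 in ear, and 3 lay in a splice region. None of these 10 was in a somatic list. Those lists set marrow against ear as the normal tissue, so a change in ear alone would not be called somatic. For the ear-only sites the absence is therefore no evidence. Apart from Csf2rb2 p.Ala222Pro, the protein-altering ones had 2 to 4 variant reads each. That change had 48 of 138 reads in ear of animal 54 (34.8%), all 48 on the forward strand, at a mapping quality of 28.

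**Figure D4:**
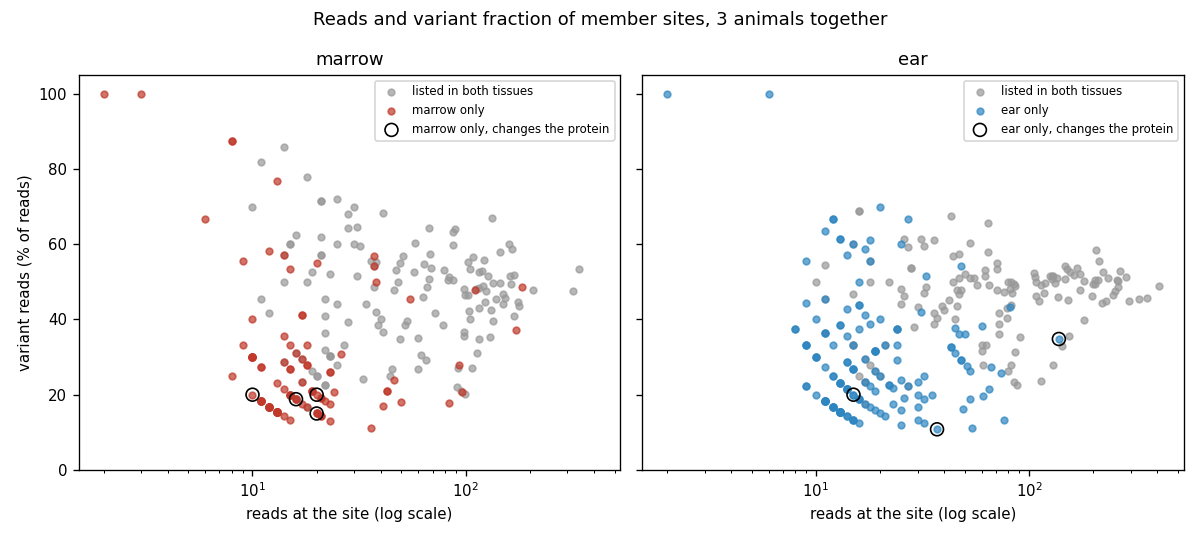
Reads at a site (horizontal, log scale) against variant reads as a percentage of reads (vertical) for member sites of the 3 animals together, in marrow (left) and ear (right); grey points are listed in both tissues, coloured points in 1, and open circles are private changes to a protein. Many coloured points gather at low read numbers and low fractions, with others at higher fractions, and 6 of the 7 circles are among the former.

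Somatic calls of any class numbered 13 in the members, 10 by Strelka and 3 by VarScan2, and no call was made by both. They fell in 10 of 29 members (34.5%), where 38.8% of protein-coding gene names had a call. By class, 7 lay in introns, 2 downstream, 1 upstream, 1 in a splice region, 1 in a non-coding exon and 1 was synonymous. Protein-altering calls were 0 of 10 by Strelka and 0 of 3 by VarScan2. Over all calls they were 2691 of 6603 (40.8%) by Strelka and 155 of 3272 (4.74%) by VarScan2. For animals 54, 108 and 136 Strelka listed 4, 0 and 6 of them, and VarScan2 listed 1, 2 and 0.

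In animal 54 Strelka listed intron changes Nf1 c.1063-25T>C, Ptpn11 c.333-52G>A and Sos1 c.2673+54C>G and the upstream Nras c.-1952C>A, with qualities of 27, 26, 20 and 31 in the authors' deposited table. The marrow list held the Ptpn11 change at 4 of 17 reads and the Sos1 change at 4 of 21, and the ear list held neither. In animal 136 it listed the synonymous Csf2ra p.Leu44Leu, intron changes Jak1 c.1176+27C>A and Kit c.1807+47G>A, Stat3 n.262G>T in a non-coding exon and a pair downstream of Csf1r. Their qualities in the authors' deposited table were 15, 16, 19, 43, 18 and 19. Strelka's files as used here give no reads per allele, so 8 of the 10 calls have no fraction. The median quality was 19.5 for the members and 24 over all calls of the authors' deposited table.

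VarScan2 listed a splice-region insertion in Pdgfra, c.2157-7dupT, in animal 54 with 5 of 13 reads in marrow and 1 of 16 in ear (p = 0.047 in the authors' deposited table, an exact test on reads). In animal 108 it listed the Ptpn11 intron change c.1392-174T>C with 7 of 25 reads in marrow and 0 of 23 in ear, where 3 reads would be 13% and the exact 95% interval reaches 14.8% (p = 0.00653 in the authors' deposited table, exact). It also listed Sos1 c.1202+70G>C in animal 108 with 6 of 13 and 1 of 17 reads (p = 0.0152 in the authors' deposited table, exact). The deposited p-values here are those of an exact test in 1 direction, unadjusted over calls. Fisher's exact test as used above took both directions, so its p-values cannot be set beside them. That Sos1 change was the one in the ear lists of animals 54 and 136 described above. As loss of heterozygosity, VarScan2 marked 2 intron sites of Csf2rb2 in animal 54, c.1321+151C>T with 12 of 14 reads in marrow and 9 of 18 in ear, and c.404-189T>G with 14 of 18 and 26 of 53. By Fisher's exact test on the listed reads, neither passed (p = 0.0608 and 0.0571, adjusted p = 0.624 and 0.616). At each of these sites all listed variant reads were on 1 strand in both tissues. At the 43 shared Csf2rb2 sites of that animal, marrow was higher at 25 and lower at 17, with a mean difference of 5.01 points (SD 11.8 over sites). Many of these sites lie close enough to share reads, so they are not replicates. In the same animal the mean difference was -3.45 points over 5 Csf2rb sites, -2.87 over 24 Csf3r sites and 0.246 over 18 Tyk2 sites.

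Other genes of the same pathways, ligands, phosphatases, exchange factors and further receptors, were counted beside the members. Of 64 such genes, 58 had a listed site, 19 a shared site and 4 a shared protein-altering site, 11 sites in all. Csf2, the gene for granulocyte-macrophage colony-stimulating factor, had p.Gly139Val in animals 108 and 136, at 39.9 to 46.9% in the 4 samples. Il3, which encodes interleukin-3, had 4 missense changes in the same animals, at 30.2 to 58.2%. Pdgfb p.Val183Ile stood at 44.7% in marrow and 43.1% in ear of animal 54. Ptprc, the leukocyte phosphatase CD45, had 5 missense changes in animal 54, at 29.3 to 57.6% in marrow and 42.5 to 59.5% in ear. Animal 54 carried shared changes in the interleukin-3 receptor subunit Csf2rb2 while animals 108 and 136 carried them in interleukin-3. A relation between the changes in receptor and ligand was not tested.

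Protein-altering somatic calls were listed in 4 of these 64 genes, all by Strelka and none by VarScan2. They were Osmr p.Gln312* in animal 54 and Il5ra p.Val360Leu, Ptpn1 p.Gly350Asp and Rasgrp1 p.Pro679Leu in animal 136, with qualities of 38, 18, 24 and 41 in the authors' deposited table. That is 4 of 64 genes, of which 58 had a listed site. The 14.1% given above is a share of the protein-coding gene names that appear in the lists, so its base is nearer to the 58.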

How the data were processed

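Exome capture of marrow and ear DNA from 3 mice used the Agilent SureSelect Mouse Exon kit (50 Mb) and was read at a mean of 100-fold coverage, as the labels' protocols state. Among tools, SAMtools, Bowtie2 and FastQC appear in the submitters' processing notes, with mm9 and GRCm38 as builds, and member coordinates lay in the GRCm38 gene spans. The authors deposited, per the file headers, lists of SAMtools variants per sample with read counts per strand and allele, and lists of Strelka and VarScan2 somatic calls per animal with SnpEff annotations. VarScan2 columns give counts, the p-value of a somatic call and a status, per the file headers, and Strelka files give a quality score, deposited as the authors' caller wrote it. The filters behind the calls are not stated by any label or header used here. The tumour column of VarScan2 was taken as marrow: at 2313 of 2372 calls also in a SAMtools list, the assigned column was the closer.

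Per-allele counts were summed over strands, and fractions have exact (Clopper-Pearson) 95% intervals, which cover counting error only, since reads are not unique molecules. Each annotation was put in its most severe class, protein-altering being high or moderate impact. Sites with at least 10 reads in both tissues were tested by Fisher's exact test within an animal and, over the 3 animals, by an exact conditional test with animal as stratum, adjusted by Benjamini-Hochberg over all sites (Python 3.11.15, scipy 1.17.1, R 4.3.3), and checked on simulated data. These tests within an animal compare 2 libraries, with no replicate of either tissue. Marrow and ear of 1 animal are paired by the labels. Their fraction deviations correlated at 0.153, 0.196 and 0.111 over 4444 sites within animals. Between animals the values were below 0, which deviations about a mean of 3 animals favour by construction, so they are no separate evidence of the pairing. Zelen's exact test between animals and the mapping quality setting were added after the data were seen. The members, gene lists and rule for named sites were chosen with earlier results of these data known. That rule names shared protein-altering, splice-region and untranslated sites, private coding and splice sites and somatic calls, and the 10 with most reads where a class holds more. No reference genome or protein table was used here.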

Additional observations from a re-analysis of the deposited data

How the results depend on the processing

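The count of 0 member sites past the adjusted threshold held in each animal and over the 3 animals under every alternative run: at least 20 reads, single nucleotide sites, annotations within the gene, mapping quality of at least 30 (chosen after seeing the data), the Cochran-Mantel-Haenszel test and each animal left out. Few sites passed over all genes (0.0181 to 0.0346% per animal), so these counts of 0 are no sign of stability. Without the pairing (no replicate block) the count was also 0, with 8 sites called over all genes against 1, and the mean difference was 2.54 points in place of -2.16. Leaving out 1 animal gave means from -4.56 to 1.71. Protein-altering somatic calls were also 0 with loss-of-heterozygosity calls added; the other 5 alternatives can only remove calls, so their 0 is no sign of stability. With at least 20 reads, member sites went from 327 to 181, marrow-only sites from 100 to 40 and ear-only sites from 152 to 67. Without animals 54, 108 and 136 in turn, member sites ranged from 166 to 284, marrow-only sites from 57 to 72 and ear-only sites from 72 to 118, the lowest of the first and last without animal 54 and that of marrow-only without animal 108. Somatic calls of any class were 13 and fell to 3 at a VarScan2 p under 0.01 and Strelka quality of at least 30, and ranged from 7 (without animal 136) to 11, with 8 without animal 54. The alternative with a list quality of at least 30 was not run, since the lists as used here hold no such column. Private member sites had a median of 13 to 18.5 reads of both alleles per sample, and the lists give no depth for the tissue that lacks a site.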
